A study of Mus musculus with 16 samples.

Results

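After 1 h of IFNγ in macrophages pretreated with the PARP inhibitor PJ34, 5758 H3K27ac regions were listed that had no counterpart in the lists of untreated, IFNγ-treated or PJ34-treated cells. The 4 peak lists (Control, IFNγ, PJ34 and IFNγ+PJ34) were merged wherever peaks shared at least 1 bp, and a region was retained when its peak came from the IFNγ+PJ34 list and from none of the other 3. The regions were therefore chosen by the measured peaks themselves, and presence, score, fold enrichment, width and distance to other lists are given for them as description. They were 5758 of the 34184 merged regions with an IFNγ+PJ34 peak and of 55218 merged regions in all, and each held exactly 1 peak.

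The cells were bone marrow-derived macrophages from C57Bl6 mice aged 8 to 12 weeks, grown in medium with serum and L cell-conditioned medium, and chromatin was immunoprecipitated for H3K27ac. Control cells received neither agent. The IFNγ cells received 100 ng/mL IFNγ for 1 h, the PJ34 cells received 20 µM PJ34, and the IFNγ+PJ34 cells received PJ34 for 1 h before the 1 h of IFNγ. Each list was made from 2 ChIP samples with input samples beside them (16 samples, 8 ChIP and 8 input), and only peaks found in both replicates were listed, so that the lists carry no replicate error and no sequencing depth. For this reason no p-value is given, and every interval below covers 95% of counting error only and treats regions or motif matches as independent.

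Acetylation of histone H3 at lysine 27 marks active promoters and enhancers. PARP enzymes attach ADP-ribose chains to proteins, chromatin proteins and transcription factors among them, and PJ34 blocks this activity. IFNγ signals through JAK kinases, and its response elements, GAS, lie near genes of antimicrobial defence and antigen presentation. All 10 macrophage markers examined, such as Csf1r and Adgre1, had a peak within 1 kb of a start site in all 4 lists, against 0 of 6 T and NK cell markers and 0 of 5 fibroblast markers. Of 5 B cell markers 1 (Ms4a1) and of 6 neutrophil and progenitor markers 0 or 1 had such a peak. Of the erythroid markers reported here, Klf1 had one in all 4 lists and Hbb-bt, Epor and Gata1 had none.

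Some of the strongest regions are shown by their sequence. The sequence took no part in choosing the regions, but it did in choosing 3 of the windows shown. The windows below are centred on the summit of the highest-scoring region (nearest gene Qpct), of the region within Ifi204, and of 3 high-scoring regions whose window held an interferon-related motif. Those 3 are examples picked for their motif, and most windows of the highest-scoring regions held none of the searched motifs. Capitals mark a GAS (TTCNNNGAA) in the windows of Mfsd4b4 and Adra2a and an ISRE-like element (GAAANNGAA) in that of Scel, and the first pair of windows held none of the searched motifs. Sequences are from GRCm38 (mm10), read 5′ to 3′ on the plus strand.
Qpct, chr17:79095447-79095647, plus strand: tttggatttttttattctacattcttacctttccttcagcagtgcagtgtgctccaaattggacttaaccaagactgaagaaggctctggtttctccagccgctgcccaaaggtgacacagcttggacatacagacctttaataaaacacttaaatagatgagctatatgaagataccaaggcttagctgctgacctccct
Ifi204, chr1:173753208-173753408, plus strand: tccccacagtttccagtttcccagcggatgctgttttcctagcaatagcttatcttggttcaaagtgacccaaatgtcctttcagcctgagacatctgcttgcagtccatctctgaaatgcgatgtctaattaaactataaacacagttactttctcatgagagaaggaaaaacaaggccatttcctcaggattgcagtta
Mfsd4b4, chr10:39893561-39893761, plus strand: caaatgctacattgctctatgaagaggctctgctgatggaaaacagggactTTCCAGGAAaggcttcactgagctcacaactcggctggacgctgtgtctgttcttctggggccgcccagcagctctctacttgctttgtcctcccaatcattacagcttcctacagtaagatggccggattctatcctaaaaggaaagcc
Scel, chr14:103434167-103434367, plus strand: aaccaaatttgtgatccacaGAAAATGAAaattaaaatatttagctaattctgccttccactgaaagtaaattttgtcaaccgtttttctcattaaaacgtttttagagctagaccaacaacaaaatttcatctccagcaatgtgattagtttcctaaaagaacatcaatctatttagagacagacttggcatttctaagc
Adra2a, chr19:54152317-54152517, plus strand: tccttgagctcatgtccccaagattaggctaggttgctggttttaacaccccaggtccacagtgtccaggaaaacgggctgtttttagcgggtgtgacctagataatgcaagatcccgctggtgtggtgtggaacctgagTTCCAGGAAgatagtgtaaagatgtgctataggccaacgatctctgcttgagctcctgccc

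A stricter GAS, TTCCNGGAA, is the palindrome preferred by STAT dimers and is contained in the looser GAS. It was matched 156 times in 152 of the 5758 regions (2.64%), against 4.58% of the other 37202 peaks of the IFNγ+PJ34 list, which were wider. Capitals mark it below in the 3 highest-scoring regions that held it, among which the Mfsd4b4 region held 2 copies.
Ifi204, chr1:173753559-173753599, plus strand: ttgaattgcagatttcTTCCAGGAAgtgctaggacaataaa
Mfsd4b4, chr10:39893596-39893636, plus strand: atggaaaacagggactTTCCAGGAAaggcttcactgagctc
Mfsd4b4, chr10:39894429-39894469, plus strand: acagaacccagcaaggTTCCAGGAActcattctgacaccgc
Adra2a, chr19:54152441-54152481, plus strand: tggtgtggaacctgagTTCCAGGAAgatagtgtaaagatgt

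The highest-scoring region lay on chromosome 17 (79094767 to 79097215), outside genes and 43.4 kb away from the start of Qpct, which encodes the enzyme that forms N-terminal pyroglutamate on chemokines and other peptides. Its peak score was 232 and its fold enrichment over input 29.4, and the closest Control, IFNγ and PJ34 peaks were 1.67, 3.10 and 1.70 kb away. The second, with a score of 152 and a fold of 26.4, lay in an intron of Jmjd1c, a member of the JmjC histone demethylase family. The third, on chromosome 1 (173752337 to 173754816), lay in an intron of Ifi204, which encodes an interferon-inducible DNA-binding protein of the PYHIN family. Its score was 132 and its fold 23.3, and no peak of another list lay within 7.33 kb.

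Introns of Trip4, a transcriptional coactivator subunit, of 1700025G04Rik and of Mfsd4b4 held the next regions, with scores of 130, 129 and 116. These were followed by intergenic regions nearest to Nmd3, an export adaptor of the large ribosomal subunit (score 104), to Scel, a precursor of the cornified envelope (94), and to Gdf6, a BMP-family ligand, and Gtpbp4, a GTPase of ribosome biogenesis (91 each). The region in Adk, the adenosine kinase gene, scored 90 and that nearest to Tank, a regulator of TRAF signalling, scored 88. Thus the 12 highest-scoring regions lay in introns or intergenic sequence, and 0 of the 12 lay at a promoter. Absence from another list did not always mean distance from its peaks, since the Nmd3 region lay 0.075 kb from an IFNγ peak and the Gdf6 region 0.108 kb from a Control peak, whereas the Scel region lay 34.0 kb from the nearest.

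Most of the 5758 regions were weak members of their list. Their score ranged from 10 to 232 with a median of 15, against a median of 28 for the other IFNγ+PJ34 peaks. The median fold enrichment was 4.02 (1.69 to 29.4) against 7.29, and the median width 382 bp (184 to 2645) against 713 bp. Since a peak had to be found in both replicates to be listed, absence from a list is not a measure of H3K27ac in those cells. At the boundary of the rule, 18 regions lay within 10 bp of a peak of another list, with a median score of 13.5 and a median fold of 3.79. Of the IFNγ+PJ34 peaks left out, 7 overlapped a peak of another list by 10 bp or fewer at their lower-coordinate end. Overlaps at the other end were not counted, so this number is not to be set against the 18. These 7 peaks had a median score of 12 and a median fold of 3.26.

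Regions found in a single list made up 16.8% of the IFNγ+PJ34 list (16.4 to 17.2), 17.0% of the Control list (6513 of 38276), 7.10% of the IFNγ list (2250 of 31675) and 13.7% of the PJ34 list (4932 of 35991). The IFNγ+PJ34 share thus lay close to that of Control and well above that of IFNγ. The regions of IFNγ+PJ34 alone reached higher in their own list than the regions of any other single condition, as the plot of score bins shows. In the top 50% of the list by score were 749 of them (13.0%), against 249 for Control alone (3.82%), 86 for IFNγ alone (3.82%) and 85 for PJ34 alone (1.72%). In the top 25% were 35, against 0 in each of the other 3 classes.

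At a given statistical support the fold enrichment differed between the lists, which moves with this result. Among peaks with a −log10 p of 5 to 6, the median fold was 3.53 in the IFNγ+PJ34 list, against 3.25 for IFNγ, 3.06 for PJ34 and 3.05 for Control, and its part in the number of regions found in IFNγ+PJ34 alone was not tested.

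**Figure D1:**
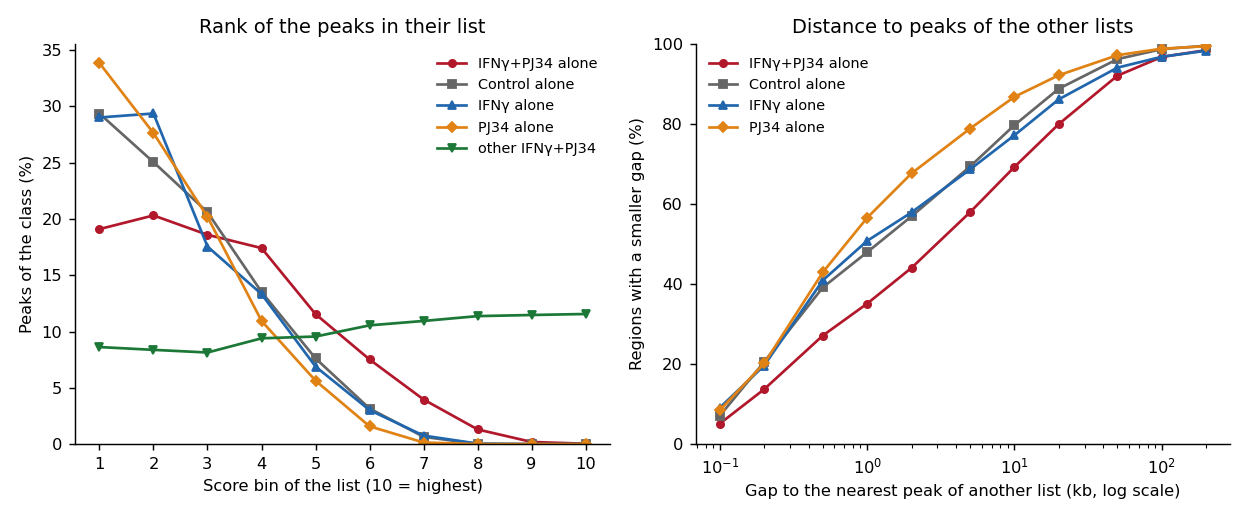
Left, percent of the regions found in 1 list alone that fell in each of 10 equal bins of their own list by peak score (lowest first), for Control, IFNγ, PJ34 and IFNγ+PJ34, with the other IFNγ+PJ34 peaks in green. Right, cumulative percent of these regions against the distance in kb (log axis) to the nearest peak of any other list; the IFNγ+PJ34 line lies lowest at 1 kb, where it reaches 35.1%.

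The regions were also the most remote from the other lists. A peak of another list lay within 1 kb of 35.1% of them (33.9 to 36.4), against 48.0% for Control alone, 50.8% for IFNγ alone and 56.6% for PJ34 alone, and the median gap was 3.05 kb against 1.16, 0.937 and 0.708 kb. No peak of another list lay within 10 kb of 1769 regions (30.7%). These remote regions were not weaker than the 2022 regions within 1 kb, with median scores of 15 and 14 and median folds of 4.17 and 3.80. They also lay further from genes, at a median of 37.3 kb from a start site against 20.4 kb.

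Promoters were rare. A summit within 1 kb of a protein-coding start site was found in 208 regions (3.61%, 3.15 to 4.13), against 32.9% of the other IFNγ+PJ34 peaks, a difference of −29.3 percentage points (−30.0 to −28.6). The difference was also seen within score bins. In the lowest of 4 equal bins of the list the shares were 4.26% and 14.8%, and in the bin below the highest they were 2.66% and 32.6%. In the highest bin 0 of 35 regions were at a promoter, with an exact interval that reaches 10.0%, against 58.3% of the other peaks. Introns held 50.5% of the regions and intergenic sequence 42.5%, and 72.4% lay over 10 kb from a start site. Regions of the other single conditions were also mostly distal, with promoter shares of 5.91% for Control alone, 2.49% for IFNγ alone and 5.78% for PJ34 alone. The differences from these were −2.30 (−3.05 to −1.55), 1.12 (0.27 to 1.89) and −2.17 points (−2.99 to −1.36).

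Of the 208 promoter regions only the highest-scoring are named here. Among these, Fn1 and Ccl24 belong to the list of alternative activation genes examined below, and the other promoters named here do not. Whether genes of that list were frequent among all 208 was not tested. The Fn1 promoter, 0.608 kb from the start of the fibronectin gene on chromosome 1 (71653019 to 71654495), had a score of 50 and a fold of 12.9. No other peak of the IFNγ+PJ34 list lay within 50 kb of the Fn1 start, none of the other 3 lists had a peak there, and the nearest was 76.8 kb away from the region. The Ccl24 region, 0.132 kb from the start of the gene of the eosinophil chemoattractant eotaxin-2, had a score of 43 and a fold of 10.9. Within 50 kb of Ccl24 lay 2 Control, 0 IFNγ, 2 PJ34 and 6 IFNγ+PJ34 peaks. At Pdcd1lg2, which encodes the PD-1 ligand PD-L2, the region scored 46 with a fold of 11.0 and lay 0.353 kb from the start site. The other highest-scoring promoters were those of 1700025F22Rik (score 55) and of the olfactory receptor gene Olfr1511 (score 45).

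The regions were poor in GC. Their median GC content was 43.6%, against 47.8% in the other IFNγ+PJ34 peaks, 46.4% in Control alone, 44.7% in PJ34 alone and 43.4% in IFNγ alone. Over all bases of the class, the pooled ratio of observed to expected CpG was 0.206, against 0.450 in the other IFNγ+PJ34 peaks and 0.248 in those over 1 kb from a start site.

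To ask which binding motifs the regions carried, matches on both strands were counted per kb and set beside a control motif in which the same letters were rearranged. A match is a description of the letters and not evidence of binding. The GAS was matched 1169 times, at 0.439 per kb, in 994 regions (17.3%). In the other IFNγ+PJ34 peaks 27.4% held it, at 0.348 per kb, giving a density ratio of 1.26 (1.19 to 1.34), while GAANNNTTC, the control, gave 1.12. The GAS ratio reached 1.54 (1.40 to 1.69) over Control alone, 1.34 (1.21 to 1.48) over PJ34 alone and 1.16 (1.02 to 1.32) over IFNγ alone, with control ratios of 1.12, 1.08 and 0.955. The regions thus held more GAS per kb than those of any other single condition, and the margin was smallest over IFNγ alone.

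The margin over the other IFNγ+PJ34 peaks varied with base composition. In the lowest of 3 GC bins the ratio over them was 1.04, with a lower bound of 0.959 that lies under 1, and it was 1.16 and 1.35 in the middle and highest bins. Over Control alone it was 1.34, 1.51 and 1.76 in the 3 bins and over PJ34 alone 1.24, 1.38 and 1.43, whereas over IFNγ alone it was 1.03, 1.59 and 0.989. For the strict GAS the ratios were 1.35 over the other IFNγ+PJ34 peaks, 2.09 (1.58 to 2.79) over Control alone, 2.35 (1.68 to 3.36) over PJ34 alone and 1.83 (1.21 to 2.86) over IFNγ alone. Among the 749 regions in the top 50% of the list the GAS density was 0.529 per kb, higher than the 0.439 of all the regions. The top 50% of IFNγ alone held 0.515 per kb, so that the ratio over IFNγ alone was 1.03 there (0.698 to 1.57) and the margin was no longer seen, whereas it was 2.14 (1.59 to 2.93) over Control alone and 1.89 (1.18 to 3.23) over PJ34 alone.

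The distance between the half-sites was then varied from 0 to 10 bases, a search chosen after the GAS values had been seen. Of these 11 spacings, 4 gave the highest ratio over the other IFNγ+PJ34 peaks, 1.33 (1.25 to 1.42), followed by the 3 of the GAS. The remaining spacings had a median ratio of 1.14. Over Control alone spacing 4 gave 1.42 (1.29 to 1.57), over PJ34 alone 1.33 (1.19 to 1.48) and over IFNγ alone 1.14 (1.00 to 1.31). Spacing 3 was higher over these classes, at 1.54, 1.34 and 1.16 in the same order, with overlapping intervals. Over IFNγ alone spacing 0 was highest, at 1.36 (0.836 to 2.297). With regions over 1 kb from a start site in both groups, spacing 4 fell to 1.197 (1.12 to 1.28) over the other IFNγ+PJ34 peaks and spacing 3 to 1.12. From the lowest to the highest GC bin the spacing 4 ratio over the other IFNγ+PJ34 peaks was 1.16 (1.07 to 1.26), 1.11 (0.983 to 1.24) and 1.43 (1.14 to 1.77). Over IFNγ alone the spacing 4 interval included 1 in all 3 bins. Spacing 4 is the arrangement preferred by STAT6, the factor of IL-4 and IL-13 signalling, and spacing 3 is that of the GAS. Spacing 4 was held by 902 regions (15.7%), against 23.9% of the other peaks, 10.6% of Control alone, 11.8% of IFNγ alone and 10.1% of PJ34 alone. The copies in the 3 highest-scoring regions are given below with capitals on the 10 matched bases.
Qpct, chr17:79095835-79095874, plus strand: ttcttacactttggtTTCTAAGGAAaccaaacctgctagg
Jmjd1c, chr10:67123651-67123690, plus strand: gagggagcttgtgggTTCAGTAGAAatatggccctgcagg
Ifi204, chr1:173752551-173752590, plus strand: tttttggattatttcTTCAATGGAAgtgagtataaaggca
Ifi204, chr1:173752747-173752786, plus strand: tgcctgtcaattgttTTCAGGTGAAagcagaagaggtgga

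**Figure D2:**
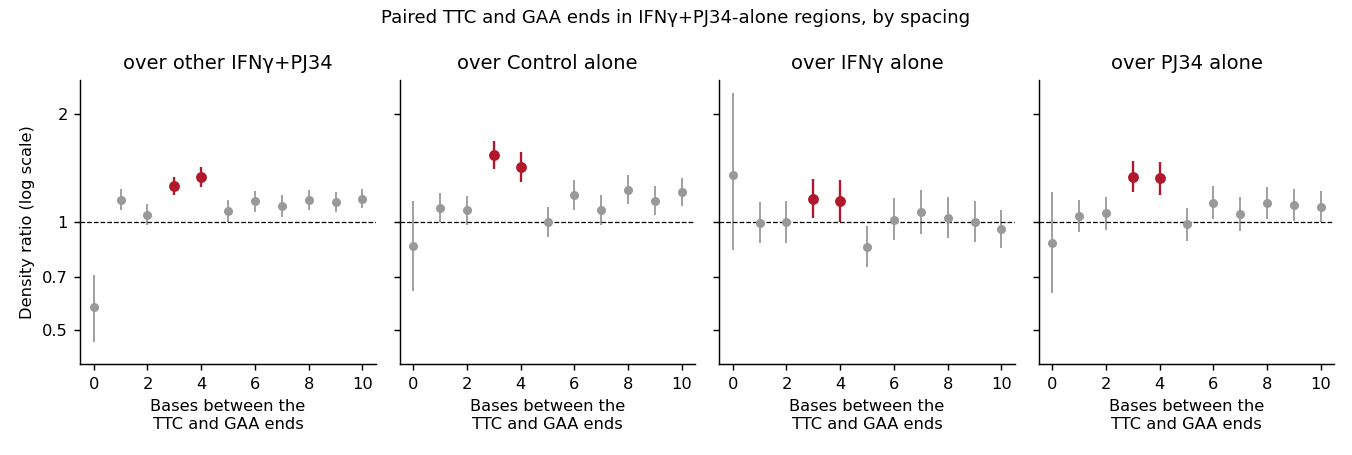
Ratio of matches per kb in the regions of IFNγ+PJ34 alone to those in 4 other classes (1 panel each), against the number of bases between TTC and GAA; bars are 95% counting intervals and spacings 3 and 4 are red. Spacing 4 reaches 1.33 over the other IFNγ+PJ34 peaks and 1.42 over Control alone, and spacing 3 reaches 1.26 and 1.54.

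Over whole regions, other motifs of macrophage enhancers were not more frequent than in the rest of the list, once the control motif was considered. The ISRE-like element, bound by interferon regulatory factors, had a ratio of 1.10 (1.03 to 1.16) over the other IFNγ+PJ34 peaks against 1.11 for its control AAGNNAAAG, and 16.9% of the regions held it against 29.3%. Over Control alone its ratio was 1.29 (1.18 to 1.41) with a control of 1.11. The AP-1 motif (TGANTCA), found at 0.315 per kb, had a ratio of 0.968 (0.902 to 1.04) against 1.29 for its control TCANTGA, and of 0.779 (0.686 to 0.886) over IFNγ alone. The PU.1 motif (GAGGAAGT), bound by the lineage factor of macrophages, had a ratio of 0.653 (0.560 to 0.757) with a control (TGAAGGAG) of 0.954 and was held by 3.11% of the regions against 10.3%. In the top 50% by score the PU.1 ratio was 0.875, in a fixed window at the summit 0.857 and in the highest GC bin 0.894, each with an interval that included 1. Over all regions it was also less dense than in Control alone, at 0.714 (0.587 to 0.865), but not distinguishable from IFNγ alone at 1.07 (0.788 to 1.48) or PJ34 alone at 0.994 (0.787 to 1.26). The C/EBP motif (TTGCNNAA) had a ratio of 1.12 (1.06 to 1.19) with a control (AAGCNNTT) of 1.21. Over Control alone its ratio was 1.12 (1.03 to 1.21), under its control of 1.195. Over IFNγ alone it was 1.21 (1.07 to 1.36) with a control of 1.06, and over PJ34 alone 1.23 (1.12 to 1.34) with a control of 1.15. A margin over IFNγ alone and PJ34 alone was thus not particular to the GAS. AP-1, C/EBP and GAS motifs were held by 13.1%, 19.5% and 17.3% of the regions, against 25.4%, 31.9% and 27.4% of the wider other peaks.

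To place the regions beside genes, 15 gene lists were examined for a region summit within 50 kb of a start site. Over all protein-coding genes, 21.5% had a region of IFNγ+PJ34 alone within that distance, 28.7% one of Control alone, 11.8% one of IFNγ alone and 20.4% one of PJ34 alone. Among genes with at least 5 Control peaks within 50 kb these shares were 35.3%, 60.9%, 21.5% and 40.6%. Genes that lie side by side share regions, so that genes of a list are not independent, and the lists were chosen with earlier results of these data known. The lists also share genes, so that their counts are not independent of each other.

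Of 51 IFNγ-response genes, 38 (74.5%, 60.4 to 85.7) had a region of IFNγ+PJ34 alone within 50 kb, from 95 distinct regions. For Control alone the number was 13, for IFNγ alone 20 and for PJ34 alone 22. Of the 41 such genes with at least 5 Control peaks 33 had a region, to be read against the 35.3% above. Ifi204 had 4 regions within 50 kb, and Socs1, the feedback inhibitor of JAK kinases, also had 4, with the strongest at 33.7 kb (score 57, fold 13.1). Around Socs1 lay 3 Control, 8 IFNγ, 6 PJ34 and 9 IFNγ+PJ34 peaks.

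Genes of cell-autonomous defence were often reached as well. Many of these, such as Ifi47, Tgtp2, Gbp8 and Ifi204, are also IFNγ-response genes and were already counted above. A region lay near 11 of 19 GTPase genes (1, 2 and 5 for Control, IFNγ and PJ34 alone) and near 12 of 13 genes of the Ifi200 cluster (2, 5 and 1), the latter from 16 distinct regions. Ifi47 and Tgtp2, neighbouring genes of the immunity-related GTPases, shared 6 regions, the strongest with a score of 55 and a fold of 13.7, and had 13 Control, 8 IFNγ, 9 PJ34 and 18 IFNγ+PJ34 peaks around them. Gbp8, a guanylate-binding protein gene, had 9 regions, and 5 Control, 12 IFNγ, 4 PJ34 and 19 IFNγ+PJ34 peaks. In the Ifi200 cluster the Ifi207 and Ifi208 regions were followed by that of Ifi202b, with scores of 132 (shared with Ifi204), 43 and 18.

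Of 25 antiviral interferon-stimulated genes, 17 had a region, against 5 for Control alone, 1 for IFNγ alone and 8 for PJ34 alone. Among them were Oas1a, a synthetase of the RNase L activator (score 29), Ddx58, the RNA sensor RIG-I (28), Trim21, an antibody receptor in the cytosol (22), and Rsad2, the antiviral enzyme viperin (18).

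Alternative activation, the programme known from IL-4, gave 13 of 20 genes (65%, 40.8 to 84.6; 32 distinct regions), against 5 for Control alone, 5 for IFNγ alone and 4 for PJ34 alone. Mrc1, the mannose receptor, had 6 regions within 50 kb with a top score of 51. Peaks of any kind around Mrc1 numbered 21 for Control, 8 for IFNγ, 14 for PJ34 and 18 for IFNγ+PJ34. Tgm2, a transglutaminase, had 5 regions with a top score of 48 and 11, 9, 9 and 14 peaks in the same order. Together with Fn1 and Ccl24 above, these genes had between 1 and 6 regions each.

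For several lists the number lay close to that of another single condition, although their shares lay above the 21.5% of all genes. JAK, STAT, SOCS and IRF regulators had a region near 19 of 35 genes (17, 12 and 23 for Control, IFNγ and PJ34 alone), and Irf2, a repressor of interferon genes, had 5 with a top score of 55. Stat5a and Stat5b shared a region with a score of 37. STAT3 targets gave 13 of 23 (9, 6 and 13), with Socs3, an inhibitor of gp130 signalling, at a top score of 26 and the prothrombinase gene Fgl2 at 24. Chemokines gave 12 of 22 (10, 7 and 14), where Ccl8 and Ccl12 shared 6 regions and Ccl2 had 5. In the order given, the shares of these lists were 54.3%, 56.5% and 54.5%. Among their genes with at least 5 Control peaks, 13 of 26, 13 of 21 and 11 of 18 had a region, to be read against the 35.3% above.

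The PARP family and enzymes of ADP-ribose removal gave 12 of 22 (11, 7 and 6), a share of 54.5%. Of the 11 such genes with at least 5 Control peaks 7 had a region. Oard1, which removes ADP-ribose from proteins, had 6 regions and 1, 1, 1 and 8 peaks in the Control, IFNγ, PJ34 and IFNγ+PJ34 lists, and the neighbouring Trem2, a lipid receptor of macrophages, had 8 regions that included the same top peak (score 45). Parp2, Parp6 and the tankyrase gene Tnks had 3, 4 and 2 regions.

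Of the remaining lists, cytokines and enzymes, AP-1 and NF-κB and macrophage lineage lay nearer to the shares over all genes. Cholesterol and lipid (43.5%) and antigen presentation (52.4%) lay above the 21.5% of all genes. Among genes with at least 5 Control peaks, a region was found for 6 of 15 cytokine and enzyme genes, 6 of 21 AP-1 and NF-κB genes and 8 of 22 macrophage lineage genes, close to the 35.3% above, and for 10 of 18 cholesterol and lipid genes and 11 of 20 antigen presentation genes. Proinflammatory cytokines and enzymes gave 7 of 20 (10, 9 and 16 for Control, IFNγ and PJ34 alone), with 3 regions each for Il6 and Tgfb1 and 1 each for Il18 and Csf1. AP-1 and NF-κB genes gave 7 of 24 (15, 8 and 14), among them Batf3, an AP-1 factor of dendritic cells, with 8 regions, and Fos with 2. Macrophage lineage genes gave 8 of 26 (20, 6 and 16), with 5 regions near the Fc receptor gene Fcgr1 and 1 each near Csf2rb and Itgam. Cholesterol and lipid genes gave 10 of 23 (15, 5 and 13), with Ch25h, the cholesterol 25-hydroxylase, at 4 regions, and Scarb1 and Abcg1 at 2 each. Antigen presentation gave 11 of 21 (14, 8 and 15) from only 7 distinct regions, and a single region with a score of 22 accounted for Tap1, Tap2, Psmb8 and Psmb9.

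DNA damage and p53 response genes had the lowest share of the 15 lists, with 4 of 29 (13.8%, 3.89 to 31.7), and with 13, 5 and 10 for the other single conditions. The interval includes the 21.5% of all genes. Of the 15 such genes with at least 5 Control peaks 2 had a region, to be read against the 35.3% above. The genes with a region were Lig4 with 3 regions (score 29), Brca1 and Gadd45g with 2 each and Cdkn1a with 1.

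**Figure D3:**
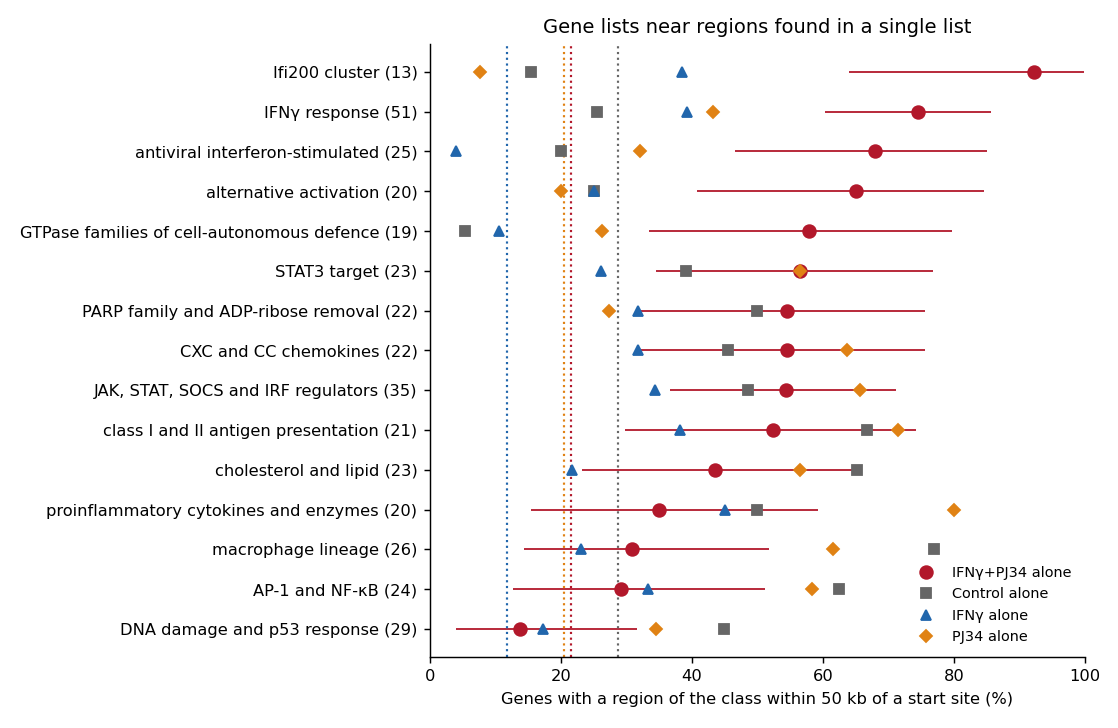
Percent of the genes of 15 lists with a region of Control alone, IFNγ alone, PJ34 alone or IFNγ+PJ34 alone within 50 kb of a start site; dotted lines give the percent over all genes and bars the 95% counting interval for IFNγ+PJ34 alone. IFNγ-response genes reach 74.5% for IFNγ+PJ34 alone and DNA damage genes 13.8%.

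The regions also gathered along single genes. The genes named were ranked by their number of these regions, so lower counts of the other classes beside them are in part built in. Med12l, a Mediator subunit gene, had 16 in its body or within 10 kb, against 0 of Control alone, 2 of IFNγ alone and 0 of PJ34 alone. Chn2, which encodes the Rac inhibitor β-chimaerin, had 15 against 0, 0 and 0, and 6 Control, 1 IFNγ, 0 PJ34 and 22 IFNγ+PJ34 peaks in all. The locus Gm37240 had 15 over 1391 kb, 1700025G04Rik had 13, and Mid1, a ubiquitin ligase gene, and Rere, a corepressor gene, had 12 each, with 0 of every other single condition for this last pair. Other classes gathered as well. Lower in the same ranking, Lpp had 10 of these regions, against 17 of Control alone, 3 of IFNγ alone and 24 of PJ34 alone.

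Runs of neighbouring regions were examined after these values had been seen, by chaining regions at most 20 kb apart. There were 162 runs of at least 4 regions, which held 795 regions (13.8%), against 194 runs for Control alone, 20 for IFNγ alone and 194 for PJ34 alone. The runs of those classes held 14.7%, 4.22% and 22.3% of their regions. Their longest runs had 14, 9 and 23 regions, against 12 for IFNγ+PJ34 alone. Another region of the same class lay within 10 kb of 46.8% of the regions, against 43.2%, 26.1% and 47.3%. Gathering was thus not particular to IFNγ+PJ34. In 48 of the runs of IFNγ+PJ34 alone, no peak of another list lay between the first and the last region, a number not taken for the other classes.

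The longest run of IFNγ+PJ34 alone held 12 regions over 31.1 kb on chromosome 3 (59204481 to 59235577), across P2ry12 and P2ry13, ADP receptor genes inside Med12l, with scores from 12 to 81. In this span lay 9 Control, 5 IFNγ, 5 PJ34 and 14 IFNγ+PJ34 peaks. The next held 10 regions over 51.0 kb on chromosome 1 (164114385 to 164165390), from the start of Selp, the gene of the adhesion receptor P-selectin, into F5, the gene of coagulation factor V. Its scores were between 12 and 59, and the span held 0 Control, 0 IFNγ, 0 PJ34 and 10 IFNγ+PJ34 peaks. A run without any peak of another list was also found at St8sia1, a sialyltransferase gene (8 regions), while the run over the protease inhibitor genes Serpina3f, Serpina3g and Serpina3i had 0 Control, 8 IFNγ, 1 PJ34 and 17 IFNγ+PJ34 peaks.

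**Figure D4:**
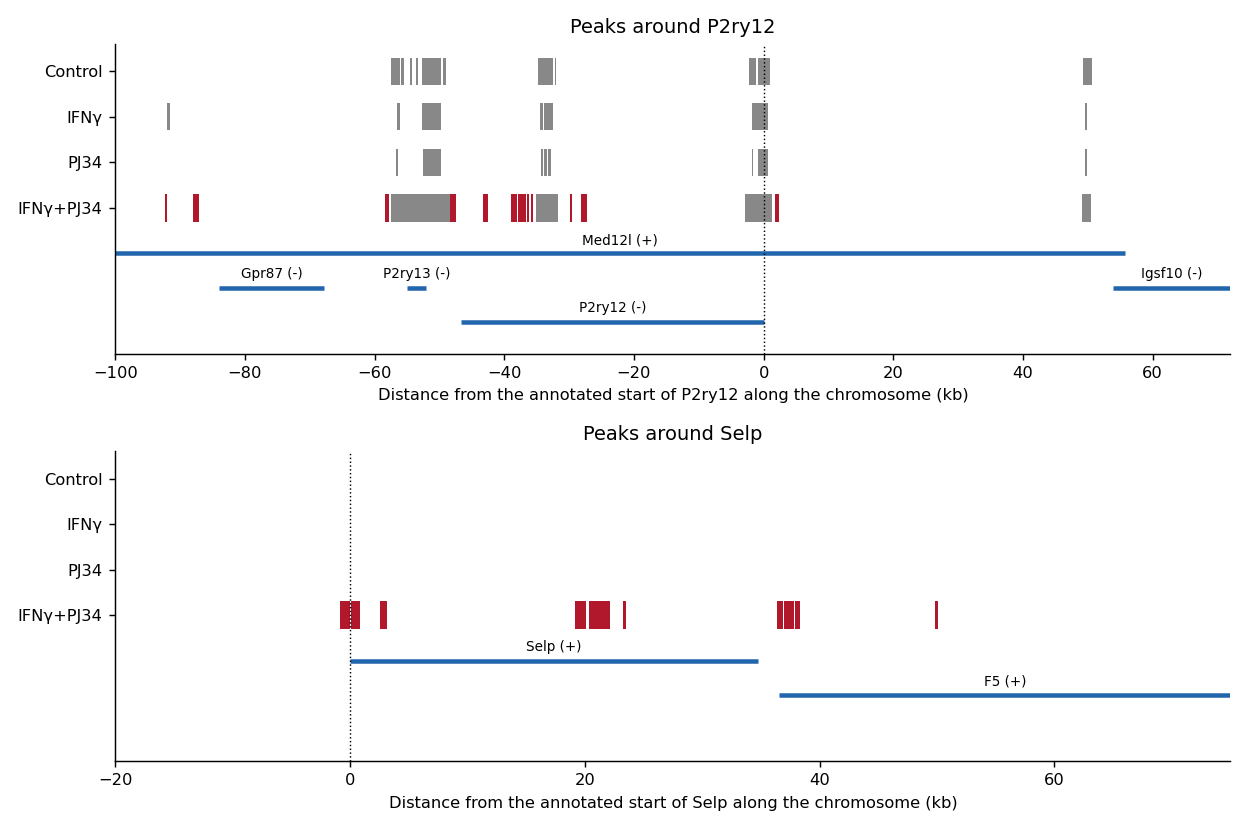
Peaks of the 4 H3K27ac lists around P2ry12 (top) and Selp (bottom), against the distance in kb from the gene's start site; regions found in IFNγ+PJ34 alone are red and gene bodies are drawn beneath with their strand. Around Selp the 10 red peaks from the start site into F5 face no peak of another list.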

How the data were processed

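H3K27ac ChIP-seq peaks of mouse bone marrow-derived macrophages were analysed in 4 conditions, with 2 ChIP and 2 input samples each. The authors used Bowtie for alignment (mm10), Samtools and Picard to filter for quality and unique mapping, then called relaxed peaks per replicate against input with MACS and kept peaks found in both replicates. The deposited narrowPeak values are a peak score, a fold enrichment (ratio over input), −log10 p and −log10 q, and a summit offset in bp. Per-replicate peaks, read counts and depth were not given in the sources used here, so that depth could not be weighed and no read of the data by replicate was possible.

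Peaks of the 4 lists were merged at an overlap of 1 bp or more. A region was placed at a promoter when its summit lay within 1 kb of a protein-coding start site (GENCODE M21), and genes were joined to summits within 50 kb. Sequence was read from GRCm38.p6 of the same build. Shares have exact Clopper-Pearson intervals, differences of shares Newcombe intervals and density ratios exact conditional Poisson intervals (95%). Of 319 symbols in 15 gene lists, 9 were not in the annotation. Named are the 12 highest-scoring regions, the 5 highest-scoring at promoters, up to 4 genes per list by highest region score, the 5 genes with most regions (with a tie) and the 3 highest-scoring regions holding each interferon motif. Sequence windows are those of the first and last of these groups, in part. Runs of regions, the half-site spacings other than 3 and the names they gave were chosen after values were seen, and all regions and gene lists were chosen with earlier results of these data known. Some items are not reported here. Functions were tested on simulated data. Python 3.11.15, pandas 2.3.3, numpy 2.4.6, SciPy 1.17.1 and matplotlib 3.10.9 were used.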

Additional observations from a re-analysis of the deposited data

How the results depend on the processing

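No paired analysis was possible because a list combines the 2 replicates of its condition, nor could a replicate be left out. Of 71 alternative values over 10 results, 42 stayed within their limits (the interval of the reported value or, for gene counts, a set factor), 28 moved beyond them and 1, a ratio whose interval lay above 1, changed direction, and the causes were not tested. The AP-1 ratio, whose interval included 1 from the outset, crossed 1 under 4 of the alternatives with intervals that still included it. The share found in IFNγ+PJ34 alone was 21.2% when only an overlap of at least 50% counted as shared, 10.9% when peaks within 1 kb did, 3.90% in the top 50% by score and 15.8% at q below 0.01. In the top 50% the promoter share was 2.54%, the median GC 43.1%, the share within 1 kb of another list 24.7% and the IFNγ-response genes reached 11 (against 3.66% of all genes). There the density ratios over the other IFNγ+PJ34 peaks were 1.50 for GAS, 1.26 for ISRE-like, 1.07 for AP-1 and 0.875 for PU.1, with an interval that includes 1. With the 50% overlap they were 1.37 for GAS, 1.21 for ISRE-like and 0.904 for PU.1. In a fixed window at the summit they were 1.18 for GAS, 1.21 for ISRE-like, 1.12 for AP-1, 0.857 for PU.1 and 1.43 for C/EBP. Over whole regions the strict GAS gave 1.35. With regions over 1 kb from a start site in both groups, an alternative added after seeing the data, GAS gave 1.12, AP-1 0.802 and C/EBP 1.04, and the ISRE-like ratio turned to 0.990 (0.931 to 1.05). The promoter share was 8.42% at 2.5 kb, the share near another list 27.1% within 500 bp and 58.0% within 5 kb, and 19 IFNγ-response genes had a region within 10 kb (6.42% of all genes).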
